A study of Mus musculus with 2 samples.

Results

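Tubulin isotypes are the alternative forms of alpha and beta tubulin that separate genes encode. Here they are 5 alpha genes (Tuba1a, Tuba1b, Tuba1c, Tuba4a and Tuba8) and 5 beta genes (Tubb2a, Tubb2b, Tubb3, Tubb5 and Tubb6), followed through every probe set that the array's annotation lists for them. A probe set is the group of short oligonucleotides that together report 1 transcript. These 10 genes had 19 of the 45101 probe sets of the array, and 14 of the 19 were listed for 1 gene only. The other 5 were listed for an isotype together with a pseudogene. No probe set was shared between a pair of the 10 isotypes. Tuba1b and Tuba1c had no probe set of their own, so 8 of the 10 genes had a probe set that the annotation listed for them alone, among 18194 genes measured in that way. For Tuba1a and Tubb2a the probe set that passed is of a kind that can match related transcripts.

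The RNA was total RNA of wild-type whole mouse embryos at E14.5, prepared with RNAzol and hybridised as biotin-labelled target to Affymetrix arrays of the mouse genome. The 2 arrays were duplicates of 1 condition, without a treatment or a mutant group, and the methods give NMRI and C57/BL6 as the strains of the E14.5 embryos without naming the strain on the arrays. Nothing in the sources used here says whether the duplicates came from separate embryos, so the spread between them may be technical. In RNA of a whole embryo, fewer cells of a type and less RNA per cell cannot be told apart.

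Microtubules are hollow polymers of alpha and beta tubulin heterodimers. They form the mitotic spindle of dividing cells, the axoneme of cilia and the tracks along which neurons carry cargo. The isotypes differ mostly in their acidic C-terminal tails, where tubulin is modified and where motors and microtubule-associated proteins (MAPs) bind. Tuba1a, Tubb2b and Tubb3 are known for their use in young neurons, and mutations of their human counterparts disturb the folding and layering of the cortex. Tubb5 is a beta tubulin of dividing progenitors, and Tubb6 is found mostly outside the nervous system.

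Signals are given on the deposited linear scale, on which each array has a mean of 100 after 2% of the values are trimmed at each end. As a measure of background, 83 probe sets of chemosensory receptors (olfactory, vomeronasal or bitter taste), which embryos at this stage are assumed not to express, were used. Their 95th percentile served as the bound and was 27.6 on array 1 and 33.8 on array 2, against median signals over all probe sets of 32.0 and 35.3. Probe sets respond unequally to the same amount of transcript, so a signal was compared with the bound and with the same probe set on the other array. The signals give no order of transcript amounts between isotypes.

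Of the 8 isotypes with a probe set of their own, 8 were above the bound on both arrays, against 65.7% of all measured genes. Among their 14 probe sets 11 passed on both arrays, against 49.2% of all probe sets. With each probe set listed beside a pseudogene counted for its isotype, Tuba1b and Tuba1c passed as well and the tally was 10 of 10. As a check of the label, markers of whole-embryo tissues passed in 6 of 6 cases, among them the liver genes Afp (3594 and 3529) and Alb (2846 and 2405) and the embryonic globin gene Hbb-y (3947 and 4118).

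**Figure D1:**
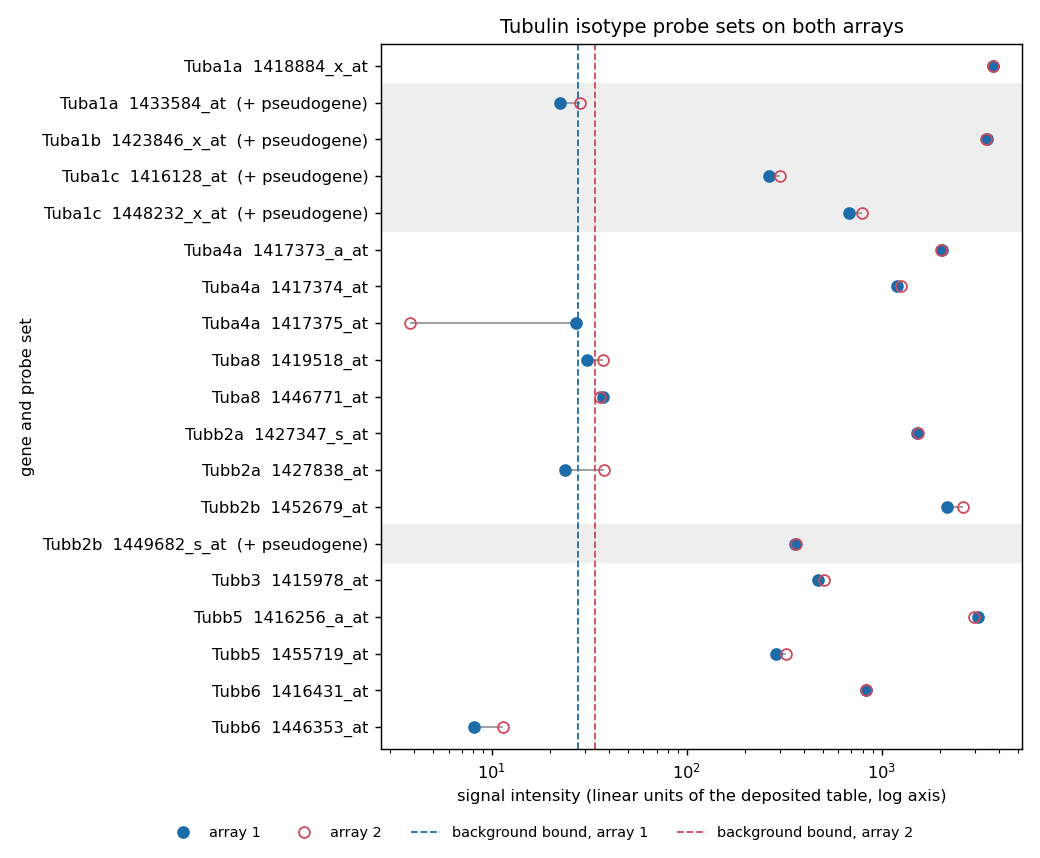
Signal of each of the 19 probe sets of the tubulin isotypes on array 1 (filled) and array 2 (open), on a log axis in the linear units of the deposited table. Dashed lines mark the background bounds of 27.6 and 33.8, and grey bands mark the 5 probe sets listed for an isotype together with a pseudogene. Tuba8 sits at the bounds, whereas Tuba1a (3744 and 3726), Tuba1b (3456 and 3431) and Tubb5 (3125 and 2968) lie far to the right.

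The stretches before the transcription start are shown for 4 isotypes because they carry, or lack, the letters TATAA, by which the members differ. Windows of 8 of the 10 genes were used, from the RefSeq promoter table of GRCm38.p6. They run from 250 bases before the start to 50 after it. Windows of Tubb2b and Tubb6 were not analysed here. Printed are the 100 bases before the start, 5' to 3' on the strand of the gene, with TATAA in capitals.

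Tuba1a (chr15:98953502-98953601, minus strand): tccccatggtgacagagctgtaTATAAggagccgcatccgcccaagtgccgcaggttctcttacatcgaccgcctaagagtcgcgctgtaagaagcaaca

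Tubb2a (chr13:34078009-34078108, minus strand): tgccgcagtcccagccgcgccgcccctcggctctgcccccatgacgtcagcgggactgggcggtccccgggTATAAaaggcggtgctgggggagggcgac

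Tubb3 (chr8:123411453-123411552, plus strand): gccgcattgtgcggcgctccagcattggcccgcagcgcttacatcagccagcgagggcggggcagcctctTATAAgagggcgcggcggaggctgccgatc

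Tuba8 (chr6:121210634-121210733, plus strand): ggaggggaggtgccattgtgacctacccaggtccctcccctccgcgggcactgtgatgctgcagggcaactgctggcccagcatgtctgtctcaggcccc

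TATAA was found 29 bases before the start in Tubb2a, 30 bases in Tubb3 and 78 bases in Tuba1a, counted from the first letter of the motif. The Tubb3 match reads on both strands, with an overlapping TATAA on the opposite strand. With both strands searched over the whole window, TATAA was present in 4 of 8 isotypes (Tuba1a, Tuba4a, Tubb2a and Tubb3), against 24.9% of 32851 windows. The match in Tuba4a lies 11 bases after the start, within the transcript. The letters GGGCGG, the core of the GC box, were present in 6 of 8, against 35.7%, and CCAAT in 4 of 8, against 37.4%. In Tuba8 none of the 3 motifs was found. These matches describe letters in the windows and are no evidence of binding.

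Among the alpha isotypes, Tuba1a had 1 probe set of its own, and it gave 3744 on the first array against 3726 on the second. These signals were 135 and 110 times the bound, and the log2 difference (array 2 minus array 1, centred on the median of all probe sets) was -0.02. This probe set is of the _x_at kind, whose oligonucleotides may also match other transcripts, so Tuba1a has no signal free of this limit. Another probe set was listed for Tuba1a and for the pseudogene Gm6682. It lay below the bound at 22.5 and 28.4.

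Tuba1b, the alpha tubulin that most cell types express, was represented by 1 probe set of the _x_at kind, which was also listed for the pseudogene Gm5620. Its signals were 3456 and 3431, a log2 difference of -0.02. Tuba1c, a close relative of Tuba1a and Tuba1b, was represented by a pair of probe sets also listed for Gm6682. The weaker one had signals of 264 and 303, and the stronger one, of the _x_at kind, had 680 and 798. Both were above the bound and higher on array 2, by 0.19 and 0.22 on the log2 scale. RefSeq places the genes of this trio beside each other on chromosome 15, with no annotated gene between Tuba1b and Tuba1a and no protein-coding gene between Tuba1a and Tuba1c. Their pseudogenes are listed on chromosomes 9 (Gm5620) and 12 (Gm6682).

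Tuba4a encodes an alpha tubulin made without the C-terminal tyrosine that others carry, and its probe sets disagreed. The strongest had signals of 2036 and 2026, and the next had 1207 and 1256. With log2 differences of -0.02 and 0.05 both differed between the arrays by less than the SD over all probe sets that passed (0.26). The remaining probe set was below the bound on both arrays with 27.1 and 3.8. Which of the 3 reports the main Tuba4a transcript was not tested.

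Tuba8, the most divergent alpha isotype of the group, was close to background in both of its probe sets. The signals were 30.9 and 37.1 for the first, and 37.2 and 36.0 for the second, or from 1.07 to 1.35 times the bound. With the bound at the 99th percentile (33.8 and 41.2) Tuba8 was the isotype that no longer passed, leaving 7 of 8. It was higher on array 2 with the first probe set (log2 difference 0.25) and lower with the second (-0.06, or -0.18 with quantile normalization and -0.24 with loess).

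Among the beta isotypes, Tubb5 gave 3125 and 2968 with its stronger probe set, 113 and 87.8 times the bound. Its second probe set gave 286.5 and 321.8. Both were far above background, and their differences had opposite signs, -0.08 and 0.16 on the log2 scale.

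Tubb2a and Tubb2b encode nearly identical proteins and lie side by side on chromosome 13, with 1 non-coding gene between them in RefSeq. The own probe set of Tubb2b gave 2162 on the first array and 2624 on the second. This was a log2 difference of 0.27, or 1.21-fold, and the highest among the isotypes' own probe sets that passed. Of 1167 probe sets with a mean signal over 1000, 4.97% differed by at least as much in either direction. The class of signal was chosen after the value was seen. A second probe set was listed for Tubb2b and the transcribed pseudogene Tubb2a-ps2, and with signals of 359 and 362 (log2 difference 0.00) it did not show the same difference. The 3 probe sets listed for Tubb2a-ps2 alone had signals between 0.3 and 26.9, all below the bound.

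Tubb2a was above background through a probe set with 1519 and 1542. That probe set is of the _s_at kind, which matches several related transcripts by design. Its second probe set had 23.8 and 37.6 and passed the bound on array 2 only. Without probe sets of the _x_at and _s_at kinds Tubb2a was thus above the bound on 1 array only, Tuba1a was not measured, and 6 of 7 isotypes were above the bound on both arrays.

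Tubb3, the beta tubulin by which postmitotic neurons are usually recognised, gave 471 and 506 with its single probe set. This was 17.0 and 15.0 times the bound, and the log2 difference was 0.09. Tubb6 had 831 and 836 with its stronger probe set, a log2 difference of 0.00. Its other probe set gave 8.1 and 11.4 and was below the bound. Of the 5 isotypes with more than 1 probe set of their own, Tuba4a, Tubb2a and Tubb6 thus had a probe set that passed on both arrays and another that did not, whereas Tuba8 and Tubb5 had only probe sets that passed.

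Between the duplicates, of the 11 own probe sets above the bound on both arrays, 0 differed by more than 1.5-fold, against 3.77% of the 22203 probe sets of the array that passed. With 11 probe sets a count of 0 is near that background share and does not set the tubulins apart. The log2 differences ran from -0.08 to 0.27 with a median of 0.01, and 6 were higher and 5 lower on array 2. The low end was -0.18 with quantile normalization and -0.24 with loess, through a probe set of Tuba8. The SD over all probe sets that passed was 0.26, and over those with a mean signal above 1000 it was 0.15. Of the isotypes' own probe sets 6 were in that class of signal, and among these 6 the Tubb2b value of 0.27 was the one beyond 0.15. Outside that class, the weak probe sets of Tuba8 (0.25) and Tubb5 (0.16) were also higher on array 2. Both values were within the SD of 0.26 over all probe sets that passed.

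**Figure D2:**
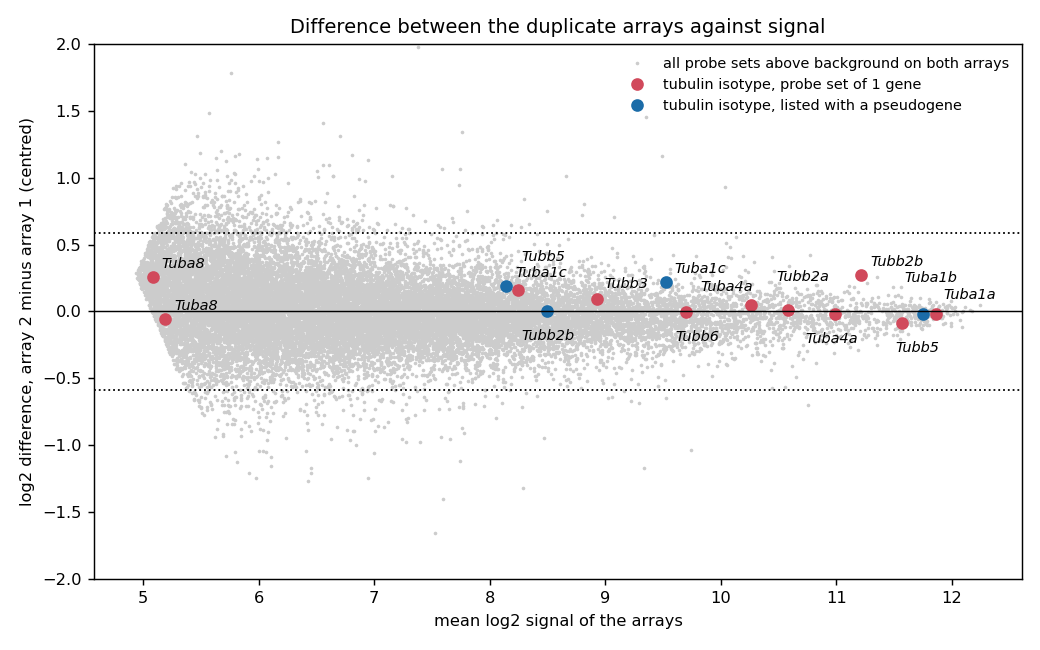
Centred log2 difference between the arrays against the mean log2 signal for all probe sets above background (grey, 1 of them outside the axis) and for the tubulin isotypes, with probe sets of 1 gene in red and those listed with a pseudogene in blue. Dotted lines mark 1.5-fold. The tubulins lie between -0.08 and 0.27, with Tubb2b highest.

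By the strongest probe set of each gene, markers of the cells known for these isotypes did not share 1 direction between the arrays. Their counts above the bound stand beside 65.7% of all genes. Neuron markers were above the bound in 8 of 8 cases, among them the RNA-binding protein genes Elavl3 (415 and 371) and Elavl4 (178 and 158) and the synaptic gene Snap25 (53.2 and 47.0). Their summed signal was 2913 on array 1 and 2641 on array 2, and 7 of 8 were lower on array 2, with a median log2 difference of -0.19. The other passing probe set of Nefl was higher on array 2 (562 and 610), whereas those of Elavl3, Elavl4 and Ina were lower. Markers of whole-embryo tissues were likewise lower on array 2 in 5 of 6 cases (median -0.18), so this direction was not particular to neuron markers. Tubb3 and the own probe set of Tubb2b were higher on array 2, at 0.09 and 0.27. The neuron median and the Tubb3 value were smaller than the SD of 0.26 over all probe sets that passed. Neural progenitor markers passed in 6 of 6 cases, with 4 of 6 higher on array 2 (median 0.08). Their summed signal was 4315 and 4293, of which Vim alone gave 2942.5 and 2943.2. These markers included Sox2 (416 and 422), the intermediate filament gene Nes (289 and 321) and the Notch target Hes5 (61.2 and 110). The other passing probe set of Nes (285 and 271), that of Hes5 (50.2 and 47.4) and 1 of Vim (2792 and 2637) were lower on array 2. Another of Vim was higher (1860 and 2007). Markers of dividing cells passed in 5 of 5 cases, with Mki67 at 1075 and 1133, Top2a at 1089 and 1020 and Pcna at 2349 and 2261. Their summed signal was 6012 and 5834. No marker of these 3 lists was at 0. The part of neurons, progenitors or dividing cells in the tubulin signals was not tested.

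Other tubulin genes were above the bound in 6 of 8 measured cases, or 75%, near the 65.7% of all genes. Tubb4b, a beta tubulin of ciliated and many other cells, had 1775 and 1685 with its strongest probe set, whereas its other 5 probe sets ranged from 3.6 to 168 and 3 of the 6 passed on both arrays. Tubb4a, a beta tubulin of neurons and oligodendrocytes, had 225 and 259. Tubg1, the gamma tubulin that starts new microtubules, had 308 and 284, while its relative Tubg2 reached 22.3 and 35.7 and did not pass on array 1. The delta and epsilon tubulin genes of centrioles were nearer to the bound, with Tubd1 at 49.9 and 50.9 and Tube1 at 57.1 and 46.5. Tubal3 was not analysed here.

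Some of these genes are known from specialised cells. Tubb1, the beta tubulin of megakaryocytes and platelets, gave 131.5 and 143.4. Markers of that lineage were above the bound in 4 of 5 cases, or 80%, beside 65.7% of all genes. Itga2b had 136.5 and 124.7, Gp1bb 85.5 and 138.8 and Pf4 760 and 714. The summed signal of these markers was 1340 and 1303. Gp9 passed on array 1 only, at 35.6 and 20.7. Tuba3a and Tuba3b are best known from testis and shared a pair of probe sets, one with 540 and 599 and the other with 219 and 229. The first is of the _s_at kind and the second of the _x_at kind, so both may match other transcripts. The probe set listed for Tuba3b alone was below the bound at 10.8 and 21.4, and Tuba3a had none of its own. Spermatid markers passed in 0 of 5 cases, with Prm1 at 27.6 and 32.8, Prm2 at 19.6 and 29.1, Tnp1 at 7.0 and 7.3 and a summed signal of 57.4 and 73.6. The source of the shared Tuba3a and Tuba3b signals was not tested.

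**Figure D3:**
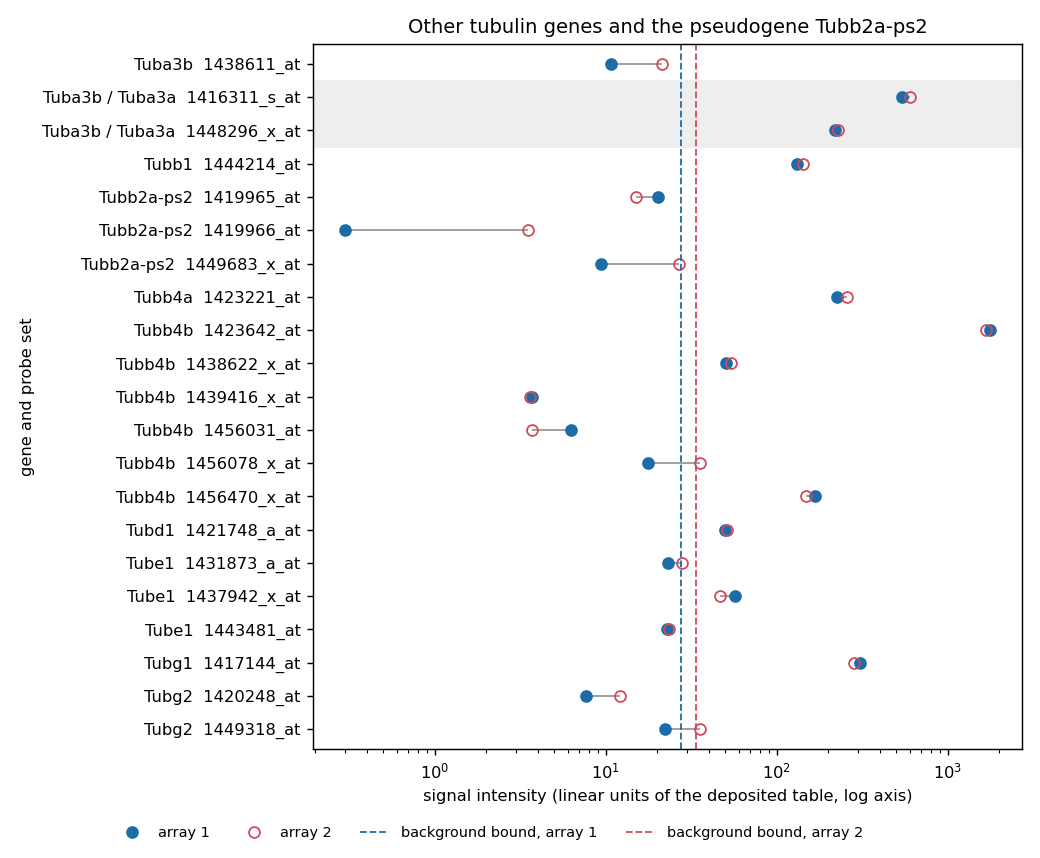
Signal of the probe sets of the other tubulin genes and of the pseudogene Tubb2a-ps2 on array 1 (filled) and array 2 (open), on a log axis, with dashed background bounds. Grey bands mark the 2 probe sets shared by Tuba3a and Tuba3b, which lie above the bounds while the probe set of Tuba3b alone (10.8 and 21.4) lies below. The shared probe sets are of the _s_at and _x_at kinds and may match other transcripts.

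The machinery that folds, nucleates, binds and modifies tubulin was mostly above the bound. Together with the other tubulins, 75 of 84 measured genes from 7 lists passed, or 89.3% against 65.7% of all genes. Genes of the gamma-tubulin ring complex, the template of new microtubules, passed in 8 of 8 cases, with signals from 45.0 (Tubgcp6) to 375 (Mzt1) on array 1. In the folding list 20 of 21 passed. It holds the chaperonin that folds new tubulin, with Cct2 at 2266 and 2218, Cct3 at 2274 and 2190, Cct4 at 2032 and 2261 and Cct5 at 2108 and 2330. It also holds the cofactors that join alpha and beta tubulin into dimers. The exception was Ttc5, which recognises tubulin as it is being made and triggers decay of its mRNA when free tubulin is plentiful. Its strongest probe set had 57.0 on array 1 and 14.2 on array 2.

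All 10 measured neuronal MAP genes passed, against 65.7% of all genes. Among them were Map1a (117 and 131), Map1b (516 and 519.5), Map2 (296 and 290) and Map6 (163 and 155). Of these 10, by their strongest probe sets, 7 were lower and 3 higher on array 2, with a median log2 difference of -0.10. Map1b was counted as higher with a log2 difference of 0.00. Further passing probe sets went both ways, such as those of Map1b (125 and 70.3) and Map1a (39.9 and 42.2). Among the other MAPs and tip proteins 12 of 13 passed, including Map4 (390 and 445), Map7 (124 and 109), Map7d1 (485 and 477) and Stmn1, which binds free tubulin dimers (3202 and 3063). Clip2 passed on array 1 only, with 33.2 and 33.0. Of the severing enzymes, which cut microtubules along their length, 5 of 6 passed, or 83.3% against 65.7% of all genes. Katnal2 did not pass, at 19.4 and 21.1.

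Of the genes for tubulin modification 14 of 18 measured passed, or 77.8%, near the 65.7% of all genes. The list holds enzymes of the tubulin tails, the acetylase and deacetylases Atat1, Hdac6 and Sirt2, which act on a lysine inside the microtubule, and Svbp, a binding partner of the vasohibins and no enzyme itself. The tyrosine ligase gene Ttl had 189 and 176, and the glutamylase genes followed with Ttll1 at 280 and 310, Ttll4 at 115 and 90.6 and Ttll5 at 76.6 and 65.2. Those that did not pass were the ligase genes Ttll3 (15.7 and 26.7) and Ttll6 (37.8 and 28.6) and the carboxypeptidase genes Agbl3 (22.5 and 19.3) and Agbl4 (12.5 and 24.7). Ttll6 was above the bound of array 1.

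**Figure D4:**
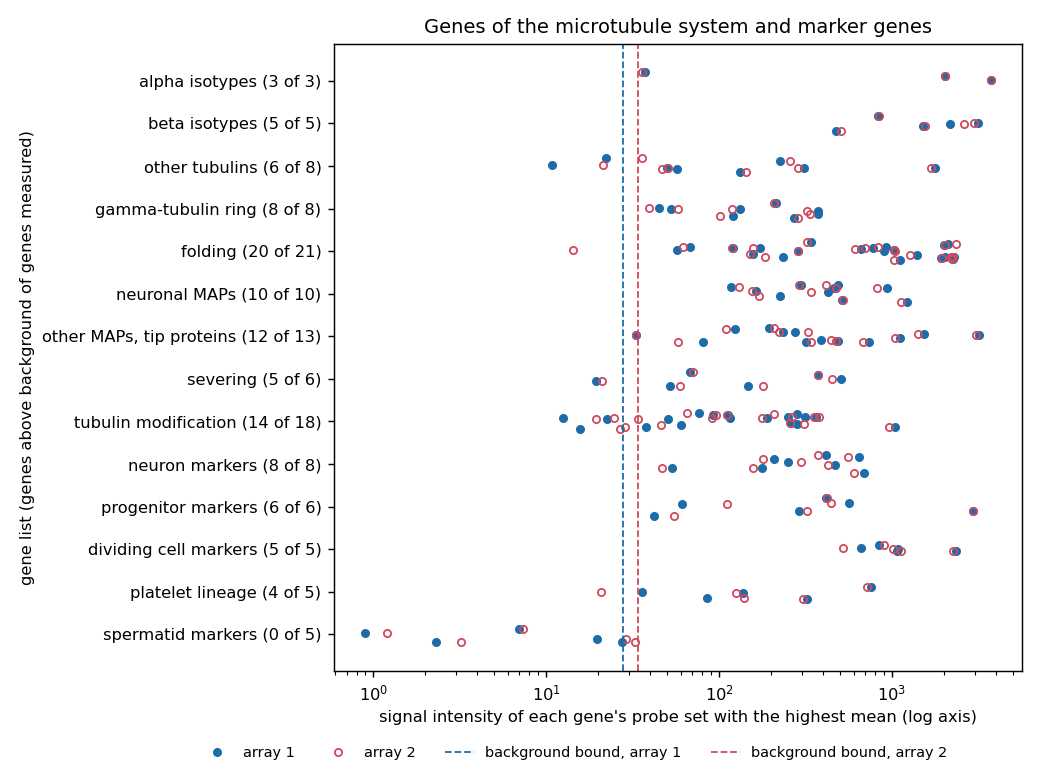
Signal of each measured gene (its strongest probe set by mean) on array 1 (filled) and array 2 (open) on a log axis, for the tubulin isotypes, 7 lists of the microtubule system and 5 marker lists, with the numbers of genes above background in parentheses. Dashed lines mark the bounds. The lists of the microtubule system lie mostly to their right, whereas 0 of 5 spermatid markers passed.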

How the data were processed

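RNA from whole wild-type embryos at E14.5 was hybridised to a pair of Affymetrix mouse arrays. The submitters' processing notes name GCOS 1.3. The deposited values are linear signal intensities, neither logged nor centred, with a mean of 100 per array once 2% is trimmed at each end. Detection calls were not used here.

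The platform annotation assigned symbols, and gene identifiers in RefSeq's GRCm38.p6 table brought 34754 of the 34958 symbols given to single-gene probe sets up to date. Another 932 probe sets had several symbols and 9211 were not listed. To pass, a gene needed an own probe set over the bound of array 1 and one, possibly another, over that of array 2. A single signal given for a gene is that of its strongest probe set by mean.

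Log2 signals of probe sets over both bounds were subtracted and centred on the median. With 1 condition and 2 arrays there was no test and no p-value, and so few arrays limit the precision of all values.

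Members and lists were chosen with earlier results of these data known. By rule the text names all members, all other tubulins, up to 5 genes of a microtubule list that did not pass, and the first 3 of a marker list. Further genes (of the ring complex, chaperonin, MAPs, modifying enzymes, Pf4, Vim, Nefl and Ina) are examples chosen after their values were seen. Protein sequences were not analysed here. Alternatives were other bounds, normalizations and filters and each array alone, and the steps were tested on simulated arrays. Expressed probe sets of the simulation lay well above the bounds, so calls of expressed probe sets near the bounds were not tested. Software was numpy 2.4.6, pandas 2.3.3, scipy 1.17.1, matplotlib 3.10.9 and statsmodels 0.14.6 under Python 3.11.15.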

Additional observations from a re-analysis of the deposited data

How the results depend on the processing

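The number of isotypes above background was 8 of 8 with the 90th percentile bound, the array median as the bound and either array alone, 7 of 8 with the 99th percentile bound and 6 of 7 without _x_at and _s_at probe sets. The own probe sets above the bound numbered from 9 to 12 under these alternatives, and 11 or 12 when a single array was used. The microtubule lists gave 73 to 77 genes under the other bounds and without those probe sets, and 76 to 78 when a single array was used. A bound without the 2 probe sets of a Vmn2r pseudogene, chosen after seeing the data, changed no isotype tally. When no filter was applied and a pseudocount of 16 was added, 1 of 14 own probe sets differed by more than 1.5-fold, the Tuba4a probe set at 27.1 and 3.8, because probe sets below the bound then enter. The median log2 difference of the tubulins ranged from 0.01 to 0.05. Tubb2b stayed higher on array 2, between 0.27 and 0.32. Tuba1a, Tuba4a and Tubb6 changed sign in some normalizations, within 0.05 of 0. The Tuba8 value of -0.06 moved to -0.18 with quantile normalization and -0.24 with loess. Taking the mean over its own probe sets moved Tuba8 to 0.10 and Tubb5 to 0.04, against -0.06 and -0.08 with the strongest probe set. No probe set was shared between listed isotypes, so their inclusion, intended as an alternative, could not be run.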
